A study of Homo sapiens with 31 samples.

Results

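The mRNAs of the small (40S) ribosomal subunit were followed through 31 sequencing libraries made from HEK293 T-REx, an established human cell line of embryonic kidney origin built for inducible transgenes. The members are 32 transcripts, chosen by their Ensembl identifiers and a match of the counted coding length to the known protein length, out of 94734 transcripts with at least 1 count. They are mRNAs of the RPS genes, with RPSA and FAU; RPSA is ENST00000301821, RPS6 ENST00000380394, RPS27A ENST00000272317, RPS29 ENST00000245458 and FAU ENST00000529639. The gene symbols rest on that rule, since no table used here pairs the transcript identifiers with genes. The counted length was the protein length minus 9 codons for 31 of 32 members, and for RPS24 it was 12 below the protein length. The members span 47 (RPS29) to 286 (RPSA) counted codons, and 12 of them cannot be separated from another transcript, whose counts were identical throughout.

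The 40S subunit binds the capped 5′ end of an mRNA, scans to the start codon and decodes it, and its protein mRNAs are among the most abundant of a growing cell. These mRNAs typically begin with a cytidine followed by a run of pyrimidines, the 5′ terminal oligopyrimidine (TOP) motif. When the kinase complex mTORC1 is inhibited, the RNA-binding protein LARP1 holds the cap and the TOP motif, and initiation on these mRNAs falls. eIF4A1 and eIF4A2 are closely related DEAD-box RNA helicases that open structured 5′ leaders during initiation.

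Ribosome profiling, which counts the fragments (footprints) that ribosomes protect from RNase I, was done in naive cells and in lines with EIF4A1 or EIF4A2 knocked out (KO). Each genotype had 2 libraries from DMSO-treated cells and, after 30 min of the mTOR kinase inhibitor PP242, 1 library at 1 µM and 1 at 10 µM. RNA-seq was done without PP242, with 2 naive libraries and 2 from EIF4A1 KO cells. RNA pulldown used cells expressing eIF4A1 or eIF4A2 with a streptavidin-binding peptide (SBP), captured on streptavidin beads and eluted with biotin, with 2 input and 2 pulldown libraries for each protein. In a separate experiment SBP-eIF4A1 cells received control siRNA (siControl: 2 inputs, 2 pulldowns) or LARP1 siRNA (siLARP1: 2 inputs, 1 pulldown) for 72 h. All cells share the HEK293 T-REx background; each genotype stands for 1 cell line, so a difference between lines and the loss of the gene cannot be told apart. No pulldown from cells without a tagged protein was analysed here, so RNA held by the beads themselves was not measured. Replicates of the RNA-seq, SBP-eIF4A2 and EIF4A2 KO libraries are named in another form than the rest. The labels do not say whether these sets were made together, so a difference between sets cannot be told apart in comparisons across them. The labels do not say that replicates came from separate cultures, so p-values measure the spread between libraries, which may be technical.

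Depth, summed over 1 transcript per locus, was 2512961 to 6414797 counts in ribosome profiling, 19597106 to 21503173 in RNA-seq and 11845082 to 17561011 in the pulldown experiments. The lowest member count was 99 footprints (RPS26 in naive cells at 10 µM PP242), and in the other assays 836 (RPS29 in the siLARP1 pulldown). All changes are relative to the rest of the same library, and in bulk libraries a change in the share of cells and a change per cell cannot be told apart. EIF4A1, EIF4A2, LARP1 and markers of the cell line were not analysed here, so genotype and knockdown rest on the labels.

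The starts of these mRNAs are shown because the TOP motif sits there. RefSeq (GRCh38.p14) windows were matched for 25 members, and RPS2, RPS15A and RPS20 were among the 7 not matched. Some windows were left out by chromosome before matching, so an unmatched member may still have an entry. Each line gives 10 bases before and 20 bases from the annotated start on the transcript strand, 5′ to 3′; capitals mark the run of C and T that begins with C at the start itself.
RPS27 (chr1:153990752-153990781, plus strand): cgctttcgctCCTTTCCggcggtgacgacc
RPS18 (chr6:33272065-33272094, plus strand): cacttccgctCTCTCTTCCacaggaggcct
RPS12 (chr6:132814559-132814588, plus strand): cggatgaggcCTCTTTCCCTgccgccgccg
RPS19 (chr19:41860245-41860274, plus strand): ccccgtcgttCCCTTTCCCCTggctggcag
RPSA (chr3:39406710-39406739, plus strand): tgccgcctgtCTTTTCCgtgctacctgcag
RPS6 (chr9:19380217-19380246, minus strand): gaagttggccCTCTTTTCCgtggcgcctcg
RPS24 (chr10:78033853-78033882, plus strand): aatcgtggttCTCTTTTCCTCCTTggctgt
RPS27A (chr2:55232678-55232707, plus strand): ggcgttcttcCTTTTCgatccgccatctgc
FAU (chr11:65122115-65122144, minus strand): tcgcttcttcCTCTTTCTCgactccatctt
RPS15 (chr19:1438386-1438415, plus strand): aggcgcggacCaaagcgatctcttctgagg
RPS7 (chr2:3575250-3575279, plus strand): cgccctcctcCTCgcgctgtttccgcctct
RPS4X (chrX:72277229-72277258, minus strand): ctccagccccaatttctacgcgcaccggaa
RPS28 (chr19:8321486-8321515, plus strand): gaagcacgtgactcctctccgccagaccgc
RPS29 (chr14:49598691-49598720, minus strand): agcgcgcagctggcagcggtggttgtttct

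The first 9 of these sequences carry a run of at least 5 pyrimidines at the start, and the last 5 do not. In all, 19 of the 25 matched members (76.0%) had such a run, against 1429 of 35116 start windows in the table (4.07%). The exceptions were RPS4X, RPS7, RPS15, RPS26, RPS28 and RPS29. Anywhere within 15 bases of the start, a C-led run of at least 5 C or T letters was found for 23 of 25 members (92.0%), beside 43.4% of all windows. The search read the transcript strand only, for C followed by any C or T. Where a member had several annotated starts, the start with the longest run was used. The shares over all windows count every start of a gene and include the windows left out by chromosome for the members, so they are not a like measure. A match describes letters at an annotated start, and starts used in these cells were not measured.

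In naive cells the members differed about 16-fold in level. On the CPM scale (counts relative to the scaled library total) per 100 counted codons, mean RNA ran from 240.0 for RPS26, a protein of the mRNA exit channel, to 3787 for RPS18, with a median of 1215. RPS19 (2948), a gene mutated in Diamond-Blackfan anaemia, followed RPS18. Footprints per 100 codons ran from 89.7 for RPS26 to 1417 for RPS24, with a median of 585. RPS4X, encoded on the X chromosome, came next at 1407, ahead of RPS15 at 1345.

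The order of footprints was not that of RNA. RPS18, first in RNA, was 7th in footprints, and RPS15, a protein near the decoding site, was 29th in RNA and 3rd in footprints. The log2 ratio of footprint to RNA levels in naive cells ran from -2.76 for RPS2, at the mRNA entry channel, through -2.63 for RPSA, the laminin receptor precursor that sits at the exit channel, to 1.37 for RPS15, with a median of -0.69. Scaled on library totals alone, the members' median ratio was -0.78 and that of 17335 transcripts with at least 100 RNA and 20 footprint counts was -0.13. The plot of levels in naive cells shows that replicates lay close together beside the distances between members. The largest half-gap between the footprint replicates on the log2 scale was 0.09 (RPS28). That value leaves out the spread of the RNA replicates, where RPS2 was 10.0% higher in replicate 1 than in replicate 2.

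**Figure D1:**
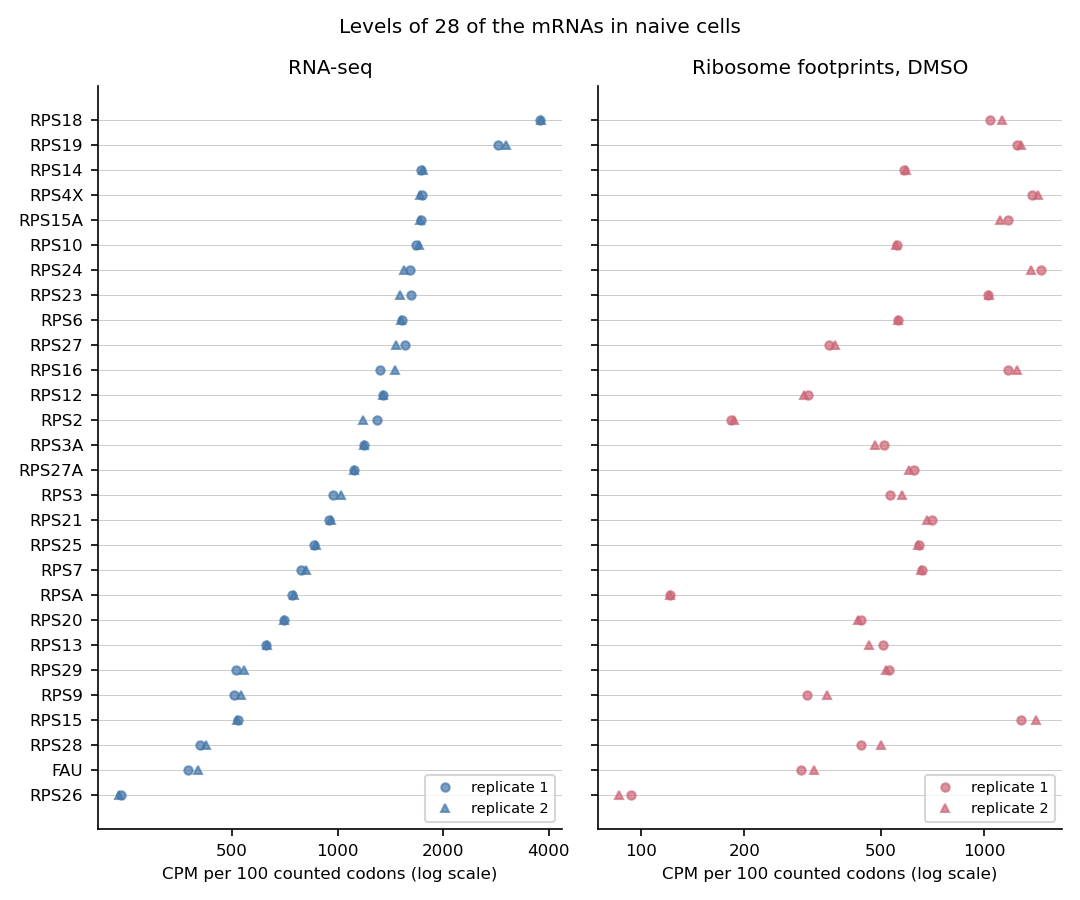
Level of 28 of the 32 members in naive cells without PP242, as CPM per 100 counted codons on a log axis, for RNA-seq (left) and ribosome footprints (right); circles are replicate 1 and triangles replicate 2, and members are ordered by mean RNA. RNA spans 240.0 to 3787 and footprints 89.7 to 1417, and RPS2, RPSA, RPS12 and RPS27 have the lowest footprint levels relative to their RNA.

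In EIF4A1 KO cells the RNA of the members moved little and in both directions. The median log2 change against naive cells was -0.02, and that of all 24825 transcripts tested was -0.00. Adjusted p-values here and below are from edgeR's quasi-likelihood test with Benjamini-Hochberg adjustment over all transcripts tested, called at 0.05. Of 32 members 7 rose and 12 fell, to be read against 37.1% of all transcripts called (18.3% higher, 18.8% lower).

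RPS4X RNA was 4414 and 4363 CPM in naive and 3591 and 3614 in EIF4A1 KO cells, a log2 change of -0.28 ± 0.02 (SE, adjusted p = 1.02e-11), the largest fall. RPS12 RNA was 1661 and 1655 CPM in naive and 1891 and 1878 in KO cells, the largest rise (0.18 ± 0.03, adjusted p = 6.33e-07). FAU, whose product is a ubiquitin-like protein fused to a 40S protein, fell by 0.20 on the log2 scale, RPSA by 0.16 and RPS27A, a ubiquitin fusion, by 0.12. RPS6, the 40S substrate of S6 kinase, was 3657 and 3633 CPM in naive and 3835 and 3815 in KO cells (0.07 ± 0.02, adjusted p = 0.0173), a call lost without either KO replicate (0.07 each time). RPS29, at 241 and 254 against 249.7 and 250.2 CPM in KO cells, differed by 0.01. The median over all members was -0.02 without KO replicate 1 and -0.03 without KO replicate 2.

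Footprints without PP242 were lower on most members in both knockout lines. In EIF4A1 KO cells 25 members fell and 1 rose, with a median log2 change of -0.36 against -0.01 for all 19650 transcripts, of which 22.8% were called (10.9% higher, 11.9% lower). In EIF4A2 KO cells 27 fell and 1 rose, with a median of -0.24 against 0.00 and a background of 8.14% called (3.77% higher, 4.37% lower). Both comparisons use the same naive libraries, so their values are given side by side. For 29 members both KO libraries lay below both naive libraries, in each knockout, beside 30.8% (EIF4A1 KO) and 23.9% (EIF4A2 KO) of all 20269 transcripts tested.

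In EIF4A1 KO cells the largest fall was that of RPS15, from 1650.2 and 1825 CPM in naive to 1062 and 1063 (-0.71 ± 0.05, adjusted p = 3.79e-22). RPS26 fell by 0.63 and RPS21 by 0.60 on the log2 scale, and RPS19 by 0.59. RPS24 was the exception: 1680.3 and 1577 CPM in naive and 1881.5 and 1749 in KO cells, with no overlap (0.16 ± 0.05, adjusted p = 0.0186). That call was lost without naive replicate 2 (0.11) and without KO replicate 1 (0.10), and with the replicate number as a block.
Of the members followed throughout, RPSA went from 329 and 331 to 248 and 254 CPM (-0.39, adjusted p = 1.05e-06) and FAU from 344 and 376 to 251 and 248 (-0.53, adjusted p = 1.21e-10). RPS6 (1279 and 1280 against 1252 and 1246) and RPS27A (873 and 845 against 824 and 863, groups overlapping) each changed by -0.03 and were not called, nor was RPS29 (-0.17, adjusted p = 0.0795).

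In EIF4A2 KO cells RPSA fell most, to 226 and 229.9 CPM (-0.53 ± 0.06, adjusted p = 1.29e-11), followed by RPS26 (-0.47, a call lost without KO replicate 2, at -0.22) and RPS19 (-0.46). RPS6 was 1032 and 1078 CPM, below both naive libraries (-0.28, adjusted p = 1.58e-05), and RPS29 was 186 and 170.0 (-0.40, adjusted p = 3.89e-06). RPS27A (-0.19) and FAU (-0.19) were called too, but RPS27A was lost without naive replicate 1 (-0.17) or KO replicate 1 (-0.16), and FAU without naive replicate 2 (-0.13) or KO replicate 2 (-0.14). RPS21, a small protein of the subunit body, was higher: 617 and 522 CPM against 495 and 479 in naive cells (0.22 ± 0.06, adjusted p = 0.00504). Its call was lost without naive replicate 2 (0.20) and without KO replicate 1 (0.10). RPS12, RPS4X and RPS20 were among the members not called.

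The 2 knockouts were also compared directly, at 6 members higher and 9 lower in EIF4A1 KO cells (median -0.09, against -0.01 for all transcripts; 22.7% called, 11.0% higher and 11.7% lower). RPS21 had the largest difference, with 312 and 331 CPM in EIF4A1 KO against 617 and 522 in EIF4A2 KO cells (-0.82 ± 0.06, adjusted p = 6.21e-22), and RPS15 (-0.44) and RPS14 (-0.39) were lower as well. In the other direction RPS24 was 0.46 higher (adjusted p = 1.5e-12), RPS3A 0.29 and RPS6 0.24 (adjusted p = 1.02e-04). RPSA differed by 0.14 ± 0.07 and was not called. FAU was 0.34 lower, and RPS29 and RPS27A were 0.23 and 0.16 higher; the last was lost without either EIF4A1 KO replicate or EIF4A2 KO replicate 1 (0.13 to 0.19), and RPS29 without either group's replicate 2 (0.17 and 0.16).

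**Figure D2:**
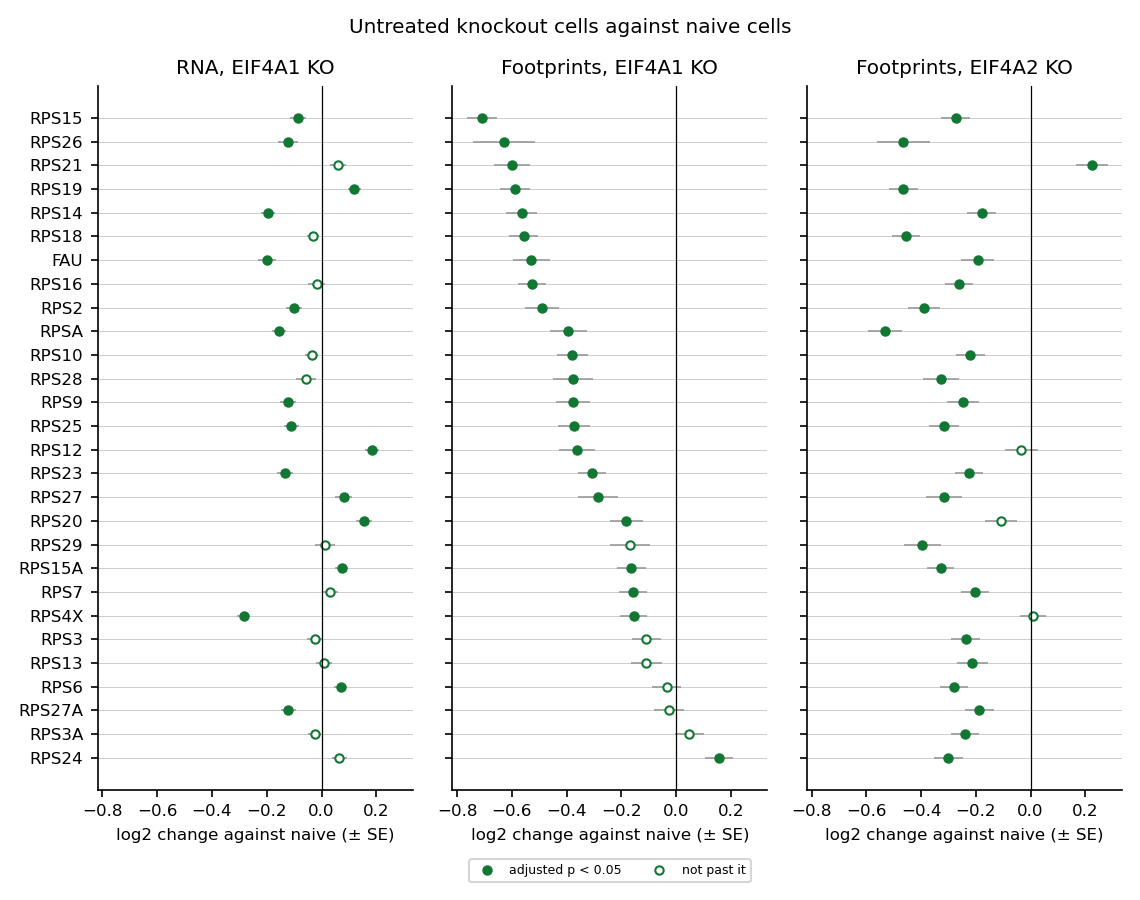
Log2 change of 28 members against naive cells without PP242, with its SE, for RNA in EIF4A1 KO cells (left) and for footprints in EIF4A1 KO (middle) and EIF4A2 KO cells (right); filled points have an adjusted p under 0.05. RNA changes stay between -0.28 and 0.18, and footprints reach -0.71 (RPS15) and -0.53 (RPSA).

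Translation efficiency, the footprint change beyond the RNA change in a model of both assays, was lower in EIF4A1 KO cells for 24 members and higher for none by test, with a median of -0.32 against -0.02 for all 24612 transcripts (9.63% called, 4.22% higher and 5.41% lower). RPS19 RNA went from 3797 and 4023 to 4309 and 4201 CPM while its footprints went from 1644 and 1676 to 1101 and 1118 CPM, a change of -0.70 ± 0.05 (adjusted p = 3.94e-18). RPS21 (-0.65), RPS15 (-0.62), RPS12 (-0.54) and RPS18 (-0.52) came next. RPSA (-0.23) and FAU (-0.32) were called as lower, and RPS6 (-0.10), RPS29 (-0.18), RPS27A (0.10) and RPS4X (0.14) were not called. RNA-seq of EIF4A2 KO cells was not analysed here, so no efficiency is given for them.

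PP242 lowered footprints on every member in naive cells within 30 min. All 32 fell, with a median log2 change of -1.78 (3.43-fold) against 0.01 for all 20269 transcripts, of which 9.54% were called (3.77% higher, 5.76% lower). In the test the 1 and 10 µM libraries stand together against the 2 DMSO libraries, so a difference between doses adds to the spread. Together the 32 members went from 3.11% and 3.13% of the library with DMSO to 1.05% with 1 µM and 1.16% with 10 µM.

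RPS27, a zinc-finger protein of the subunit, fell most: 264 and 275 CPM in DMSO, 40.4 at 1 µM and 46.2 at 10 µM (-2.65 ± 0.10, adjusted p = 9.96e-37). RPS2 went from 519 and 531 CPM to 76.8 and 95.4 (-2.63), and RPS18 from 1491 and 1612 to 270.4 and 293 (-2.47). For all 32 members both PP242 libraries lay below both DMSO libraries, as they did for 24.8% of all transcripts. FAU fell least, from 362 and 395 CPM to 266 and 258 (-0.53 ± 0.07, adjusted p = 1.14e-08), then RPS7 (-0.99) and RPS14 (-1.08). RPS6 went from 1348 and 1346 CPM to 379.7 and 432 (-1.74), RPSA from 347 and 348 to 74.2 and 71.5 (-2.25), RPS27A from 920.1 and 889 to 306 and 371 (-1.43), and RPS29 from 249 and 244 to 70.8 and 78.0 (-1.74). Members with a pyrimidine run at the annotated start had a median of -1.88 (19 members, -2.65 to -0.53) and the 6 without one -1.45 (-2.09 to -0.99), ranges that overlap; FAU, which fell least, carries a run of 9.

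EIF4A2 KO cells responded in the same direction, with all 32 members called as lower, a median of -1.92 (3.78-fold, against 0.02 for all transcripts; 12% called, 4.92% higher and 7.09% lower). RPS12 went from 360.0 and 366 CPM in DMSO to 44.1 and 44.2 at 1 and 10 µM (-3.04 ± 0.09, adjusted p = 1.88e-43). RPS27 (-3.00) and RPS2 (-2.78) followed, and FAU was again lowest in size, from 344 and 319 CPM to 246 and 243 (-0.44, adjusted p = 1.2e-06). RPS6 changed by -1.86, RPSA by -1.95, RPS27A by -1.51 and RPS29 by -1.70.

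In EIF4A1 KO cells 30 members fell, with a median of -1.36 (2.57-fold, against 0.01 for all transcripts; 6.18% called, 2.37% higher and 3.80% lower). RPS27 again had the largest change, from 218 and 225 CPM to 64.1 at 1 µM and 55.5 at 10 µM (-1.90 ± 0.09, adjusted p = 5.17e-29), then RPS3A (-1.80) and RPS20 (-1.75). RPS15 was 1118 and 1119.5 CPM in DMSO, 1096 at 1 µM and 988 at 10 µM, and was not called (-0.10 ± 0.06, adjusted p = 0.400). FAU, at 264 and 261 CPM in DMSO, 259 at 1 µM and 219.8 at 10 µM, was not called either (-0.14 ± 0.08, adjusted p = 0.304). RPS6 changed by -1.52, RPSA by -1.36, RPS27A by -1.35 and RPS29 by -1.49. In these cells the members' share went from 2.68% and 2.64% with DMSO to 1.27% (1 µM) and 1.18% (10 µM). Without EIF4A2 it went from 2.73% and 2.7% to 0.934% at either dose.

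**Figure D3:**
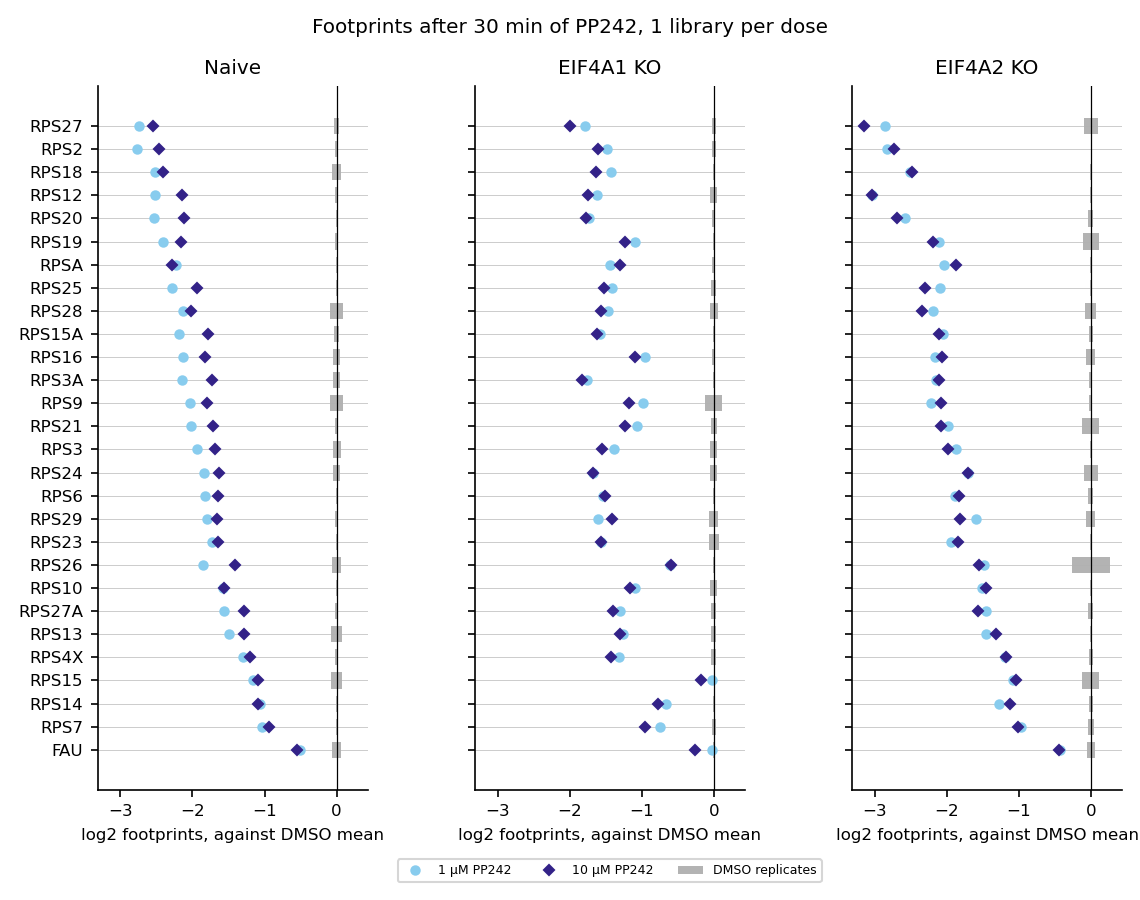
Log2 footprints of 28 members after 30 min of PP242 against the mean of the DMSO libraries of the same genotype, 1 library per dose; the grey bar at 0 spans the 2 DMSO replicates. Every point lies below 0, and RPS15 and FAU in EIF4A1 KO cells lie nearest to it.

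These calls depend on how dose enters the test. With a straight line over the dose scores 0, 1 and 2, the naive and EIF4A2 KO cells had 32 and 31 members called. Over all 20269 transcripts the same line called 292 and 455. In EIF4A1 KO cells it called 0 members and 0 transcripts. With a line over log2(dose + 1) no member and no other transcript was called in any genotype. The median of the 10 µM minus the 1 µM log2 value was 0.20 in naive cells (29 members higher at 10 µM), -0.12 in EIF4A1 KO cells (26 lower) and 0.01 in EIF4A2 KO cells. Between DMSO replicates the median half-gap on the log2 scale was 0.025 to 0.032 in the 3 genotypes, and with 1 library per dose the difference between doses has no replicate check of its own. At the 1 µM dose alone the naive, EIF4A1 KO and EIF4A2 KO medians were -1.91, -1.30 and -1.93. At 10 µM alone they were -1.68, -1.40 and -1.93, in the same order. In these fits the PP242 arm is 1 library per genotype, assumed to vary like the DMSO groups.

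Across the 32 members the sizes of the 3 responses, which share no library, were ranked alike to differing degrees. Spearman's rho was 0.96 between naive and EIF4A2 KO cells (Pearson's r 0.96), 0.65 between naive and EIF4A1 KO cells (r 0.72) and 0.63 between the 2 knockouts (r 0.74). Members are not replicates, and all points share the assay and the sequence of each transcript. The size of the naive response was not ordered by counted length (rho 0.11).

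The difference between responses was tested as a contrast. It combines levels in DMSO with levels under PP242, so a lower DMSO level in a knockout also raises it. For EIF4A1 KO against naive cells the members' median was -0.36 in DMSO and 0.21 under PP242. In EIF4A1 KO against naive cells the response was smaller for 23 members and larger for none by test, with a median difference of 0.46 (log2) against 0.01 for all transcripts; 6.19% of transcripts were called, 3.65% in the positive and 2.54% in the negative direction. RPS19 had the largest difference: its footprints went from 1692 and 1736 CPM to 323 and 383 in naive cells and from 1131 and 1149 to 534 and 487 in EIF4A1 KO cells (1.12 ± 0.09, adjusted p = 2.82e-14). RPS2 (1.08), RPS26 (1.05), RPS15 (1.02), RPS16 (0.96) and RPS18 (0.93) followed. At the other end RPS4X differed by -0.12 ± 0.08, RPS24 by 0.07 ± 0.09 and RPS27A by 0.08 ± 0.09, none called.

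RPSA was called at 0.89 (adjusted p = 3.89e-08), and RPS6 (0.21 ± 0.09, adjusted p = 0.148) and RPS29 (0.24 ± 0.13, adjusted p = 0.288) were not. FAU was called at 0.39 (adjusted p = 0.0111), a call lost without naive DMSO replicate 2 (0.33), without either EIF4A1 KO DMSO replicate (0.40 and 0.38) or without the EIF4A1 KO 1 µM library (0.28). By dose, 26 members were called at 1 µM alone (median 0.64) and 12 at 10 µM alone (median 0.33), beside 1346 and 530 of all 21100 transcripts tested there. Each PP242 arm is then 1 library, again assumed to vary like the DMSO groups. Under the dose score and under log2(dose + 1) no member was called, with medians of the difference in slope of 0.20 and 0.10 and 28 and 26 members above 0.

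EIF4A2 KO cells differed from naive cells in 1 member, RPS12, whose fall was larger (-0.70 ± 0.13, adjusted p = 0.00261); the median was -0.10, against 0.00 for all transcripts, and 0.0937% of transcripts were called (0.0197% positive, 0.0740% negative). Without the naive 10 µM library RPS12 was no longer called (-0.53) and the count was 0, with a median of 0.029 and 20 members above 0. Without the naive 1 µM library the count was 2 and the median -0.23, with 6 members above 0. RPS6 (-0.12 ± 0.09), RPSA (0.30 ± 0.12), RPS27A (-0.08 ± 0.10), FAU (0.09 ± 0.10) and RPS29 (0.03 ± 0.13) were not called. Set directly against EIF4A2 KO cells, EIF4A1 KO cells had a smaller response for 25 members (median 0.56, against 0.01; 6.33% called, 3.69% positive and 2.64% negative), with RPS12 (1.35 ± 0.12, adjusted p = 9.95e-14), RPS2 (1.23) and RPS27 (1.09) the largest. RPS4X (-0.19), RPS24 (0.03), RPS13 (0.10), RPS7, RPS27A, RPS29 and FAU were not called. RPSA was called (0.59) and so was RPS6 (0.34, adjusted p = 0.00837), the latter lost without the EIF4A2 KO 1 µM library (0.31). With the dose score and with log2(dose + 1) this count was 0 as well.

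**Figure D4:**
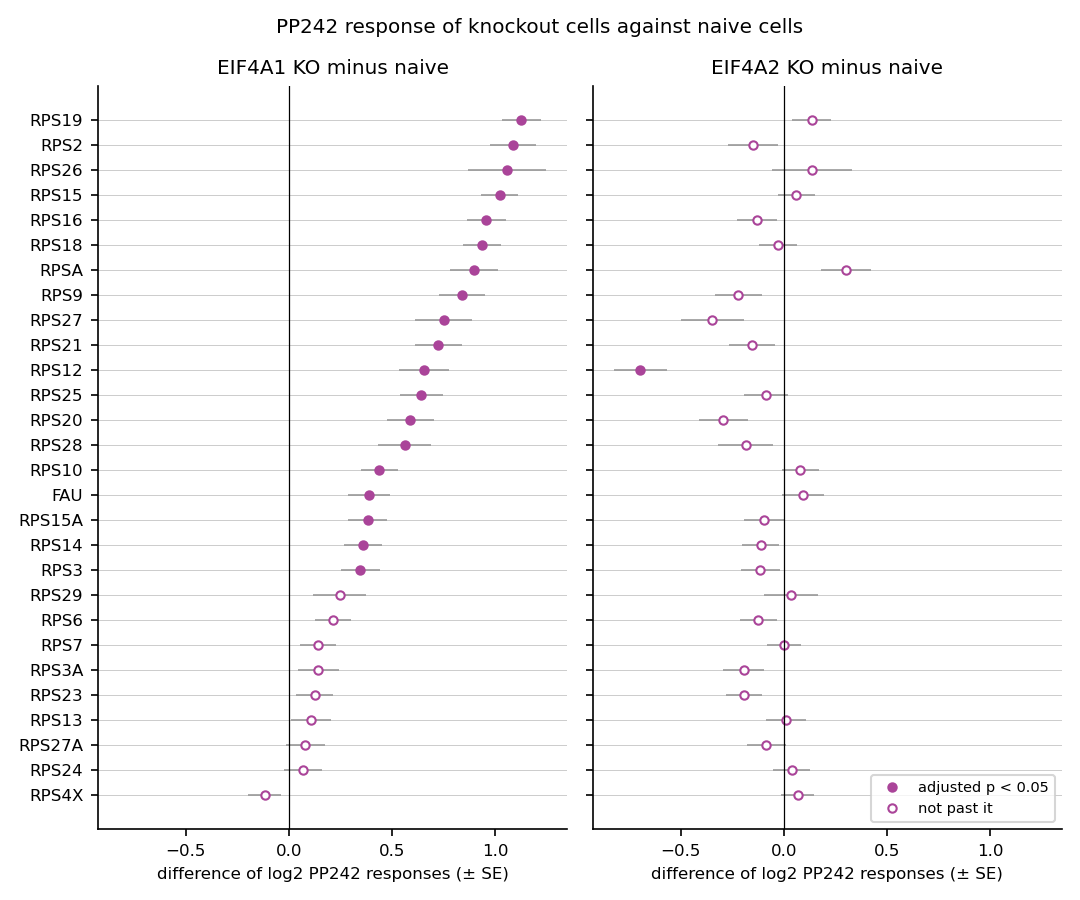
Difference of the log2 PP242 response between each knockout and naive cells for 28 of the 32 members, with its SE, where a value above 0 is a smaller fall in the knockout; filled points have an adjusted p under 0.05. In EIF4A1 KO cells 27 of these 28 members lie above 0 and 19 are filled, and in EIF4A2 KO cells RPS12 alone is filled.

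Levels under PP242 were compared as well. Footprints under PP242 were higher in EIF4A1 KO than in naive cells for 17 members and lower for 3, with a median of 0.21 against -0.00 for all transcripts (12.3% called, 6.08% higher and 6.19% lower). RPS2 was 134 and 123 CPM in KO and 76.8 and 95.4 in naive cells at 1 and 10 µM (0.60 ± 0.09, adjusted p = 4.64e-07). RPS19 (0.54) and RPSA (0.50, adjusted p = 3.6e-05) followed, with no overlap of the 2 genotypes. RPS4X was lower, at 1294 and 1191 against 1452 and 1553 CPM (-0.27 ± 0.06, adjusted p = 3.13e-04), a call lost without the KO 10 µM library (-0.21). RPS14 (-0.21) and RPS23 (-0.18) were the other 2 called as lower; leaving out the naive 1 µM, the naive 10 µM or the KO 10 µM library in turn ended each of these calls, and for RPS23 so did the KO 1 µM library.
RPS6 (0.18), RPS27A (0.05), RPS29 (0.08) and FAU (-0.14) were not called. The count differed with the libraries used. At 1 µM alone it was 22, all higher (median 0.39), and at 10 µM alone 3 (median 0.031), beside 1425 and 978 of all 21100 transcripts; each genotype then has 1 PP242 library, assumed to vary like the DMSO groups. The members' median was 0.088 without the naive 1 µM library and 0.34 without the naive 10 µM library. It was 0.17 without the EIF4A1 KO 1 µM library and 0.25 without the EIF4A1 KO 10 µM library.

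The pulldowns differed in direction between the 2 experiments. With no siRNA, SBP-eIF4A1 pulldowns held more of the members than their inputs, and after 72 h of siControl the same tagged protein gave pulldowns that held less. The members took 5.39% and 5.52% of the SBP-eIF4A1 inputs and 9.33% and 9.23% of its pulldowns without siRNA. With siControl they took 6.58% and 6.87% of inputs and 2.55% and 2.30% of pulldowns. The enrichment (log2 pulldown over input) was lower with siControl for all 32 members (median -2.94, against 0.09 for all 25019 transcripts; 50.9% called, 26.7% higher and 24.2% lower), from RPS15A (-3.71 ± 0.14, adjusted p = 1.22e-09), RPS14 (-3.57) and RPS10 (-3.56) to RPS24 (-2.02) and RPS9 (-1.88). RPS6 differed by -2.72, RPSA by -2.63, RPS27A by -2.97, FAU by -3.11 and RPS29 by -2.56. The experiment and the siRNA transfection cannot be told apart.

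Without siRNA all 32 members were higher in the SBP-eIF4A1 pulldown, with a median of 0.97 (1.96-fold) against 0.03 for all 25506 transcripts; 55.5% of transcripts were called, 28.8% as higher and 26.7% as lower. RPS28, a small protein of the exit channel, went from 155 and 173 CPM in the inputs to 729 and 701 in the pulldowns (2.12 ± 0.06, adjusted p = 1.59e-13). RPS29 followed, from 198 and 216 to 658 and 628 CPM (1.63, adjusted p = 1.15e-11), and RPS27 was at 1.28. RPS4X was lowest, from 5371 and 5475 to 6615 and 6591 CPM (0.28 ± 0.06, adjusted p = 5.69e-04), then RPS9 (0.32), and RPS20 was at 0.44. RPS6 was at 0.80, RPSA at 1.22, RPS27A at 0.91 and FAU at 0.69. For every member both pulldowns lay above both inputs, as for 41.2% of all transcripts. Across the members the enrichment ranked higher for shorter coding regions (rho -0.45, r -0.48 with counted codons), a description in which all points share the same 4 libraries.

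With SBP-eIF4A2 the members split. The test called 11 higher and 10 lower, with a median of -0.03 against 0.02 for all transcripts and 60.0% of transcripts called (29.9% higher, 30.2% lower). RPS28 was again highest, from 164 and 166 to 340.1 and 367 CPM (1.10 ± 0.06, adjusted p = 1.34e-10), with RPS29 (0.87) and RPSA (0.71, adjusted p = 1.38e-09). RPS20 was lower, from 578 and 601 to 306 and 322 CPM (-0.91 ± 0.05, adjusted p = 2.02e-10), as were RPS4X (-0.58) and RPS9 (-0.55). FAU was lower (-0.44), and RPS6 (-0.09) and RPS27A (-0.03) were not called. Against the mean of the inputs, pulldown replicate 1 had a median of -0.16 (12 members above 0) and replicate 2 of 0.086 (21 above 0). In the fit without pulldown replicate 2 the members' median was -0.19, and without replicate 1 it was 0.06. The ranking of members was similar for the 2 proteins (rho 0.87, r 0.89 over 32 members).

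**Figure D5:**
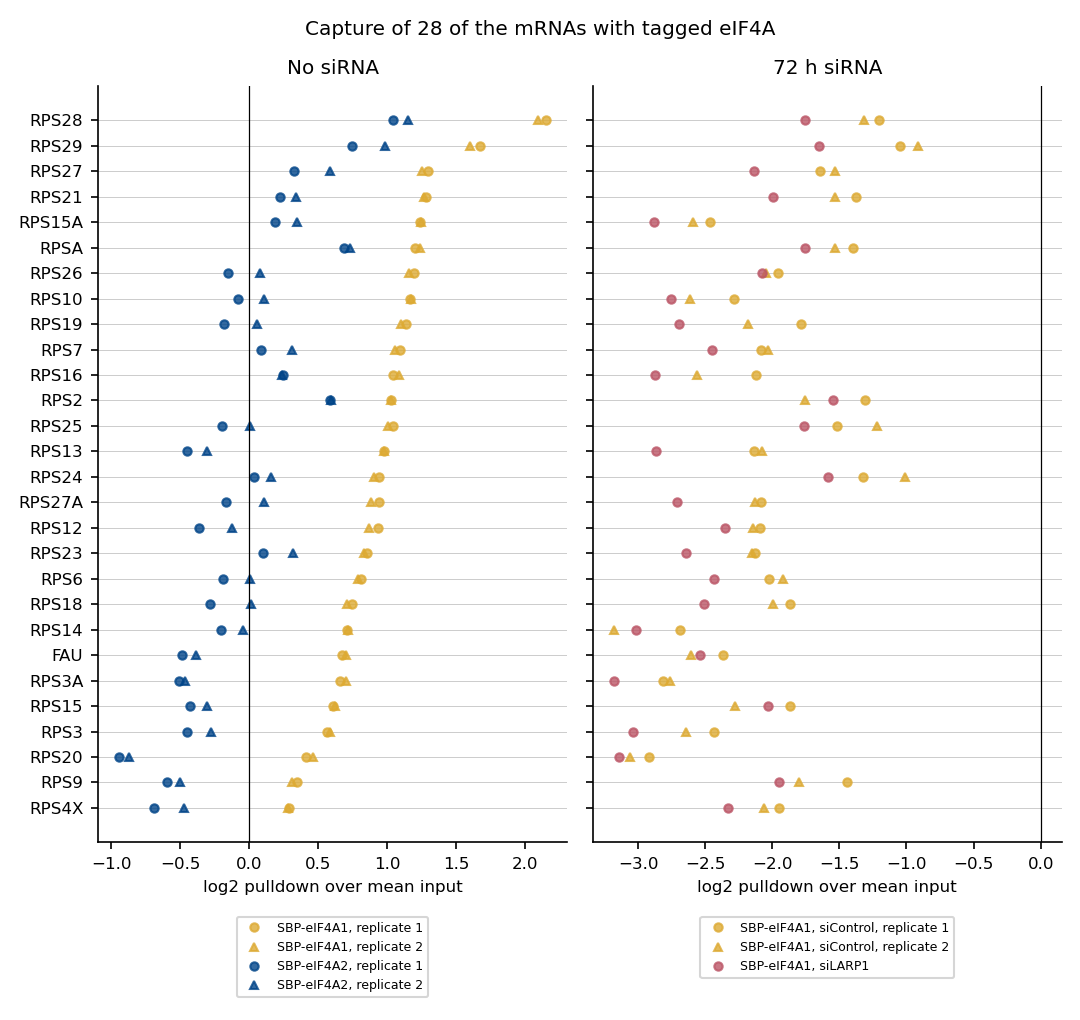
Log2 CPM of 28 members in each pulldown library over the mean of its inputs, without siRNA (left; SBP-eIF4A1 and SBP-eIF4A2) and after 72 h of siRNA (right; SBP-eIF4A1), 1 point per pulldown library. All SBP-eIF4A1 points lie above 0 without siRNA and below 0 with siRNA, and SBP-eIF4A2 points lie on both sides of 0.

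The enrichment with SBP-eIF4A1 exceeded that with SBP-eIF4A2 for all 32 members, by a median of 0.94 (1.92-fold) against 0.03 for all transcripts; 16.3% of transcripts were called, 10.6% as higher and 5.68% as lower. RPS13 (1.35 ± 0.08, adjusted p = 4.63e-08) and RPS20 (1.34) differed most, and RPS2 (0.44 ± 0.06, adjusted p = 1.29e-04), RPSA (0.51) and RPS23 (0.63) least. RPS6 differed by 0.89, RPS27A by 0.94, FAU by 1.12 and RPS29 by 0.77. The inputs of the 2 lines differed less: 7 members were higher and 3 lower in SBP-eIF4A1 cells (median 0.09 against -0.00; 19.0% called, 9.02% higher and 9.99% lower), from RPS15 (-0.34), RPS15A (-0.32) and RPS2 (-0.31) to RPS24 (0.28, adjusted p = 0.0055). RPSA was 0.19 higher, and RPS6, RPS27A, FAU and RPS29 were not called. The input count was 4 without SBP-eIF4A1 input replicate 2 and 4 without SBP-eIF4A2 input replicate 1; the calls of RPSA and RPS24 were lost each time (0.16 to 0.21).

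After siControl all 32 members were lower in the SBP-eIF4A1 pulldown than in the input, with a median of -2.00 (4.01-fold) against 0.08 for all 25540 transcripts (49.2% called, 25.1% higher and 24.1% lower). RPS20 went from 998 and 1208 CPM to 146 and 132 (-2.99 ± 0.19, adjusted p = 1.75e-14), and RPS14 (-2.91) and RPS3A (-2.79) were far below their inputs too. RPS29 was nearest to its input, from 179 and 181 CPM to 87.0 and 95.6 (-0.98 ± 0.19, adjusted p = 4.46e-05), and RPS24 (-1.16) and RPS28 (-1.26) also lay near. RPS6 changed by -1.97, RPSA by -1.46, RPS27A by -2.11 and FAU by -2.48. For every member both pulldowns lay below both inputs, as for 35.8% of all transcripts. The order of members was only in part that seen without siRNA (rho 0.52, r 0.55).

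LARP1 knockdown was followed in the inputs first. All 32 members had log2 changes below 0 in siLARP1 against siControl inputs (median -0.52, 1.43-fold, against 0.01 for all transcripts), and 2 passed the test, FAU among them, beside 0.454% of all transcripts (0.286% higher, 0.168% lower). FAU went from 545 and 583 CPM to 333 and 322 (-0.78 ± 0.18, adjusted p = 0.0301), the largest change. RPS20 (-0.73, adjusted p = 0.0512) missed the threshold, and RPS2 lay nearest to 0, at 8598 and 7921 against 7615 and 7228 CPM (-0.15 ± 0.17). RPS6 was at -0.52, RPSA at -0.54, RPS27A at -0.42 and RPS29 at -0.30, none called.
For 31 members both siLARP1 inputs lay below both siControl inputs, beside 21.8% of all 25540 transcripts. By edgeR's test 28 members had an unadjusted p under 0.05, and 3143 of all transcripts, in either direction. Both calls were lost when any 1 of the 4 inputs was left out (FAU -0.76 to -0.83), and the DESeq2 Wald test called 19 members and 362 of all transcripts.

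The enrichment after siLARP1 was compared with siControl using a lone siLARP1 pulldown library, which is assumed to vary like the other groups. By edgeR's test 0 members were called, and 0% of all transcripts; 6 members and 793 transcripts had an unadjusted p under 0.05, and DESeq2 called 0 members too. The median difference was -0.40, against -0.05 for all transcripts, with 31 members below 0. RPS13 had the lowest value, at 555 and 722 CPM in the siLARP1 inputs and 87.7 in the pulldown against 876 and 1036 and then 217 and 226 with siControl (-0.76 ± 0.29), then RPS19 (-0.72) and RPS29 (-0.67). RPS15 (0.03 ± 0.29), RPS2 (-0.03) and FAU (-0.06) lay nearest to 0. RPS6 was at -0.46, RPSA at -0.29 and RPS27A at -0.60.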

How the data were processed

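Ribosome profiling (12 libraries), RNA-seq (4) and RNA pulldown with inputs (15) were analysed from 1 file per library. The authors deposited raw counts per versioned Ensembl transcript, whole numbers with no scaling, beside a length per transcript. That length was read as counted codons. Members were chosen by its match to the known protein lengths, so the match among them is no independent check of this reading. CASAVA 1.8, STAR 2.7.0a and hg38 are named per the submitters' processing notes; the counting tool, the annotation and the handling of multiply mapping reads are not given in the sources used here, so reads of members with near-identical processed copies are uncertain. The TruSeq stranded kit is named for RNA-seq and pulldown per the labels' protocols.

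Transcripts with equal counts in all libraries were collapsed (94734 to 77343), and 1 transcript per locus was kept, members first, by dropping those correlated at 0.9 or more with a kept transcript within 10 distinct transcripts (log2 CPM, pseudocount 0.5), which left 34313. Tests used edgeR 4.0.16 in R 4.3.3: TMM scaling, filterByExpr (minimum count 10, minimum total 15), glmQLFit and glmQLFTest, two-sided, with Benjamini-Hochberg adjustment over all transcripts tested and calls at 0.05. The scripts were tested on simulated counts. CPM values are TMM-scaled within each fit, so a library's value differs slightly between fits. Alternatives were DESeq2 1.42.0 (size factors, Wald test), no count filter, all distinct transcripts, each library left out, a replicate block, and other codings of dose. All members passed the count filter in every fit. In replicate pairs counts differed beyond counting noise (chi-square per degree of freedom 1.32 to 15.0), so none was merged.

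The members, lists and tests were chosen with earlier results of these data known, including the coding of PP242 as 1 and 10 µM together against DMSO; a dose score, used before on these data, is among the alternatives. In each comparison the text names the 3 members with the largest and the 3 with the smallest change, members that go against the median's sign, and RPS6, RPSA, RPS27A, FAU and RPS29 throughout; others were named after their values were seen. Start windows come from RefSeq (GRCh38.p14). Single values of 4 members are not reported here and the figures leave them out; counts, medians and ranges cover all 32. Other genes of the pathway were not analysed here.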

Additional observations from a re-analysis of the deposited data

Results flagged for a closer look

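The PP242 response differed between genotypes by a test of the difference itself. By edgeR's quasi-likelihood test on the contrast of responses, it did so for 23 members between EIF4A1 KO and naive cells, beside 6.19% of all transcripts. Between EIF4A2 KO and naive cells it did so for 1 member (RPS12), beside 0.0937%. Between the 2 knockouts it did so for 25 members, beside 6.33%. With a line over the dose score 0, 1, 2 each of these member counts was 0. The enrichment in pulldowns differed by the same kind of test for 32 members between SBP-eIF4A1 and SBP-eIF4A2, beside 16.3% of all transcripts. It also differed for 32 members between SBP-eIF4A1 with siControl and without siRNA, beside 50.9%. The last comparison lies between experiments. For the comparisons with EIF4A2 KO or SBP-eIF4A2, the labels do not say whether both sides were made together.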

How the results depend on the processing

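Counts of called members stayed within 1.5 times of the reported count except as follows. The DESeq2 Wald test gave 12 (19 reported) for RNA in EIF4A1 KO cells, 12 (20) for footprints under PP242 and 19 (2) for the siLARP1 inputs. A line over the dose score 0, 1, 2 gave 0 for the EIF4A1 KO response (30 reported) and 0 for the response differences of EIF4A1 KO against naive (23), EIF4A2 KO against naive (1) and EIF4A1 KO against EIF4A2 KO (25). A line over log2(dose + 1) gave 0 for these 4 results and for the naive and EIF4A2 KO responses (32 each). The dose of 10 µM alone gave 12 for EIF4A1 KO against naive and 3 for levels under PP242, and 1 µM alone gave 0 for EIF4A2 KO against naive. For the siLARP1 inputs the size factors of DESeq2 gave 4, no count filter 11 and all distinct transcripts 4. Leaving out 1 library gave 0 to 2 for EIF4A2 KO against naive, 8 to 21 for levels under PP242, 4 to 9 for the inputs of the SBP lines and 0 to 0 for the siLARP1 inputs. The cause was not tested in any of these. Among 6272 values of 28 members under alternatives, 5790 were called, or not called, as in the main fit. Another 397 lost the call and 85 gained it. Direction was compared only for values called in the main fit, and 0 of these reversed. Values not called in the main fit could change sign without being counted.

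Over all transcripts the calls for RNA in EIF4A1 KO cells were 9216, with 5406 by the Wald test and 26611 when all distinct transcripts were tested, which counts several transcripts of a locus; the same 3 counts were 4490, 2223 and 13443 for DMSO footprints of EIF4A1 KO cells, and 1599, 524 and 4696 for those of EIF4A2 KO cells.

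The replicate number as a block gave 1 call for the siLARP1 inputs (2 reported) and moved no other count by over 1.5 times. Same-numbered libraries deviated together with r of -0.12 to 0.44, highest for siControl inputs and pulldowns, and the labels give no shared batch, so the numbers were not taken as pairing. No paired analysis was possible for the PP242 contrasts and for the siLARP1 pulldown because those libraries carry no replicate number. For the inputs of the SBP lines the block was the number shared by both lines, a choice made after seeing the data, and it gave 12 calls (10 reported). Size factors moved the median of all transcripts by at most 0.03. Groups of 2 libraries, and 1 per dose, limit the precision throughout, and the smallest member counts (99 footprints) widen the errors of RPS26.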
